A study of Mus musculus with 9 samples.

Results

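Igf1 and 9 genes of its receptors, adaptors and binding proteins were followed in cultured mouse microglia in which Chd8 or Tsc2 had been targeted with siRNA. The 10 genes were chosen by name: Igf1, the receptors Igf1r, Igf2r and Insr, the adaptors Irs1 and Irs2, and the binding proteins Igfbp2, Igfbp3, Igfbp4 and Igfbp7. Each is the sum of all its Ensembl transcripts, and they are 10 of the 54119 genes listed and 10 of the 16273 that passed the filter on low counts. The series has 9 RNA-seq libraries of primary microglia from the strain C57BL/6J, with no mutant allele named. They form 3 groups of 3, which received a control siRNA, an siRNA to Chd8 or an siRNA to Tsc2, and each group has libraries numbered 1, 2 and 3. Per the study's methods, the cells were shaken off mixed glial cultures of whole brains at embryonic day 18, all groups received the same lipid transfection reagent, RNA was taken 3 days after siRNA, and each replicate was a culture from another brain. The study's text also speaks of lipopolysaccharide before sequencing, whereas the labels name no stimulus, and if it was given all 3 groups shared it. An siRNA lowers a transcript in part and for a time, so no group is a knockout.

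IGF-1 is a small secreted growth factor that binds the IGF-1 receptor, a tyrosine kinase closely related to the insulin receptor. Both receptors phosphorylate the adaptors Irs1 and Irs2, which recruit PI3-kinase and so switch on Akt and the mTORC1 kinase. Tsc2 is part of the complex that restrains mTORC1, and Chd8 is a chromatin remodeller. The binding proteins hold IGFs in the fluid around cells and limit or prolong their action. In the brain, microglia are among the cells that secrete IGF-1.

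Igf1 lies on the plus strand of chromosome 10 at 87858265 to 87937042 (GRCm38), and the annotation gives 8 coding transcripts of it. They differ at both ends of the coding sequence, and these ends are printed because they define the isoform classes compared further on. Transcripts start translation either in an upstream exon (chr10:87859350-87859412) or in a downstream exon (chr10:87861371-87861385), with the start codon in capitals, 5′ to 3′ from GENCODE.
Upstream first coding exon: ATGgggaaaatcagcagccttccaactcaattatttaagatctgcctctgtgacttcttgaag
Downstream first coding exon: ATGaccgcacctgca
At the other end, a 52-base alternative exon (chr10:87915298-87915349) is skipped in Ea transcripts and present in Eb transcripts, where it shifts the reading frame of the last exon, so the precursor ends in a different peptide. The mature hormone is the same. A further transcript, Igf1-201, extends this exon and ends in it, so it has neither end printed here, and it is counted below in the class with the alternative exon. Igf1-208 also ends at this exon in the annotation, without the last-exon part of the Eb end, and is counted in the same class. In the Ea end (chr10:87930675-87930734) the stop codon is in capitals, and in the Eb end the alternative exon is in capitals, followed by the 26 bases of the last exon that are still coding (chr10:87930675-87930700).
Ea end: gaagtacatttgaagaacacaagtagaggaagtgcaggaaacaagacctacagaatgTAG
Eb end: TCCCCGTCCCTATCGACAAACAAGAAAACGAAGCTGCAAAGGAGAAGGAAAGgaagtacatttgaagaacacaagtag

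The libraries held 16913448 to 33213801 estimated counts. Levels are given as CPM, counts scaled to a common library size after TMM normalization, and 3 counts are worth 0.0903 to 0.177 CPM. The target of each siRNA was checked first. Chd8 was at 117.9, 97.4 and 93.6 CPM in control, 86.8, 44.5 and 38.3 CPM in Chd8 siRNA and 118.5, 89.8 and 101.1 CPM in Tsc2 siRNA libraries 1, 2 and 3. Tsc2 was at 40.8, 39.9 and 38.9 CPM in control, and at 24.6, 30.6 and 36.5 CPM in Tsc2 siRNA. In both cases the targeted libraries lay below all 3 controls, by a log2 fold change of -0.86 (SE 0.28) for Chd8 and of -0.38 (SE 0.15) for Tsc2, and neither passed the edgeR test over all genes (adjusted p = 0.99994 and 0.99963). With the replicate number as a block Chd8 passed (log2 fold change -0.93, adjusted p = 0.0078) and Tsc2 did not (adjusted p = 0.219), so the Tsc2 comparisons rest on a depletion that did not pass the test. With 1 library left out at a time, with or without the block, the depletion of Tsc2 ran from -0.53 to -0.24. Of 10 microglial markers 9 passed the filter, with Csf1r at 405 to 572 CPM and C1qa at 253 to 433 CPM, while Tmem119, a marker of homeostatic microglia, was under 3 counts in 6 libraries.

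Igf1 was the most abundant of the 10 genes. For levels between genes, counts were divided by transcript length and scaled like TPM values. On this scale Igf1 was at 115 to 159 with a median of 137, and in each of the 9 libraries it lay above Igfbp4, the next in order, whose range was 7.30 to 14.5 (median 11.7). On the same scale Igfbp2 had a median of 9.89 but ran from 0.539 to 30.1, and Igf2r had a median of 5.43 and stayed within 4.88 to 7.30. The place of Igfbp2 turned with the replicate number. Igfbp2 was below Igfbp4 in the 6 libraries numbered 1 or 2 and above it in the 3 numbered 3 (19.0 to 30.1 against 7.53 to 14.5). It was below Igf2r in the 3 libraries numbered 1 (0.539 to 1.69 against 4.88 or more) and above it in the other 6. Igf2r, which clears IGF-2 and carries lysosomal enzymes, was above Igf1r in all 9 libraries with no overlap. Igf1r (median 1.54), Irs2 (1.51), Igfbp3 (1.35), Insr (0.808) and Igfbp7 (0.503) overlapped with their neighbours. Irs1 was the least abundant, with a median of 0.0781 and a range of 0.0178 to 0.392, and lay below Igfbp7 within each of the 9 libraries.

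**Figure D1:**
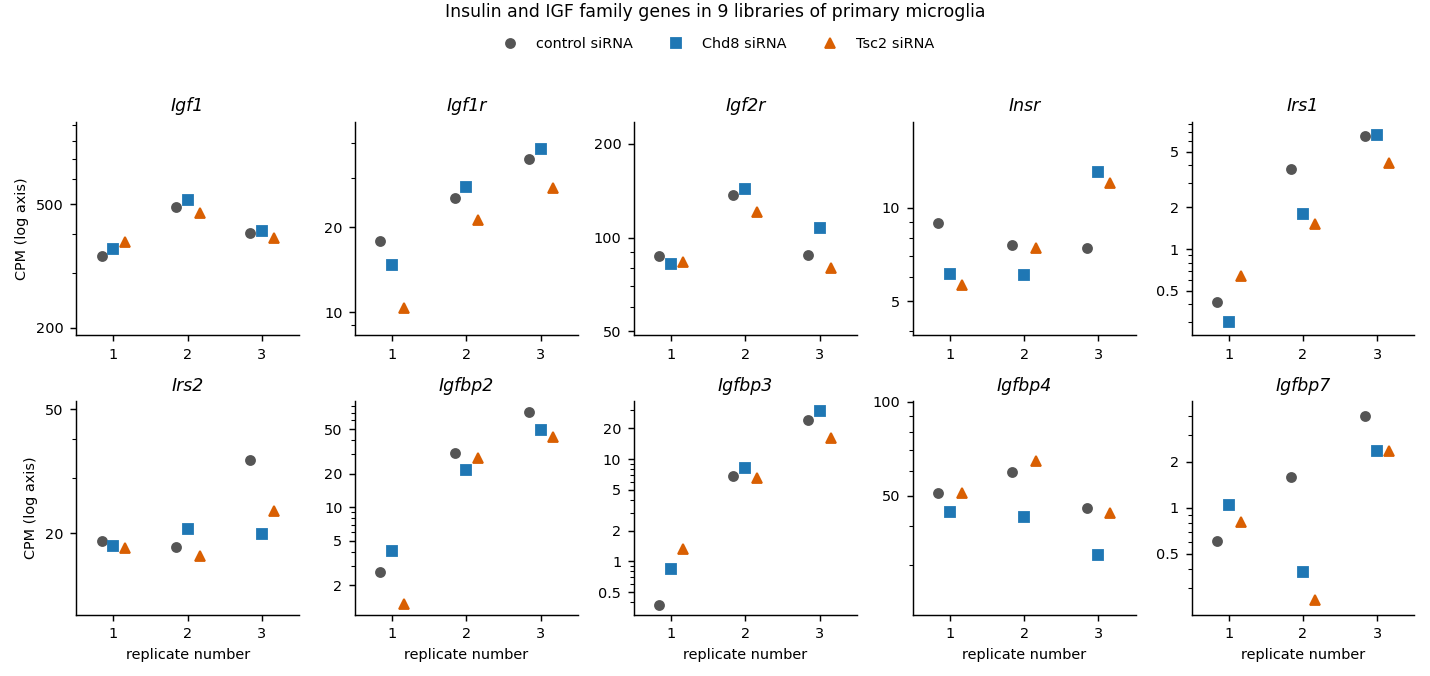
CPM of the 10 genes in each library (vertical axes, log scale) by replicate number 1 to 3 (horizontal axes), with a symbol for each siRNA group and no averaging. Symbols of 1 number lie close together for Igf1, Igfbp2 and Igfbp3, and the ranges of the groups overlap except for Igfbp4 in Chd8 siRNA against control, where the Chd8 siRNA symbols are the lowest at each number.

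Igf1 did not pass the test against control after either siRNA. It was at 339.5, 490.4 and 404 CPM in control libraries 1, 2 and 3, at 359, 513 and 409 CPM after Chd8 siRNA and at 378, 467 and 388 CPM after Tsc2 siRNA. The ranges of the 3 groups overlapped, and in each group library 2 was the highest and library 1 the lowest. The log2 fold change was 0.05 (SE 0.18, 95% confidence interval -0.34 to 0.45) for Chd8 siRNA, which was above control in 3 of 3 numbers, and -0.00 (interval -0.40 to 0.39) for Tsc2 siRNA, above control in 1 of 3. With replicate number in the model the intervals narrowed to -0.09 to 0.20 and -0.14 to 0.16, which is 0.936 to 1.15 of control for Chd8 siRNA and 0.908 to 1.12 for Tsc2 siRNA. Neither pair of intervals reaches a change of 1.5-fold in either direction, and a p that misses the threshold does not show that the levels are the same. Between the siRNA groups, Chd8 siRNA minus Tsc2 siRNA was 0.06 on the log2 scale. In whole cultures, fewer cells of a type and less RNA per cell cannot be told apart.

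None of the 10 genes passed the test in any of the 3 comparisons, in a table where no gene did. The edgeR quasi-likelihood test at a false discovery rate under 0.05 and a change over 1.5-fold called 0% of genes for Chd8 siRNA against control, 0% for Tsc2 siRNA against control and 0% between the siRNA groups, and the unadjusted p was under 0.05 for 622, 425 and 504 genes and for 0, 0 and 0 of the 10. With replicate number as a block it called 0.535%, 0.387% and 0.221% of genes (87, 63 and 36) and again 0 of the 10, with an unadjusted p under 0.05 for 2091, 1737 and 1745 genes and for 1, 2 and 3 of the 10 (Igfbp4 for Chd8 siRNA, Igf1r and Igfbp2 for Tsc2 siRNA, and Igf1r, Igf2r and Igfbp4 between them). DESeq2 called 9, 6 and 5 genes and limma-voom 0 in each, with 0 of the 10. The 2 comparisons with control share the control libraries. Over the 10 genes the median log2 fold change was -0.12 with Chd8 targeted and -0.34 with Tsc2 targeted, beside -0.02 for all genes tested in both comparisons. With the block it was -0.13 and -0.19, beside -0.02 and -0.01.

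**Figure D2:**
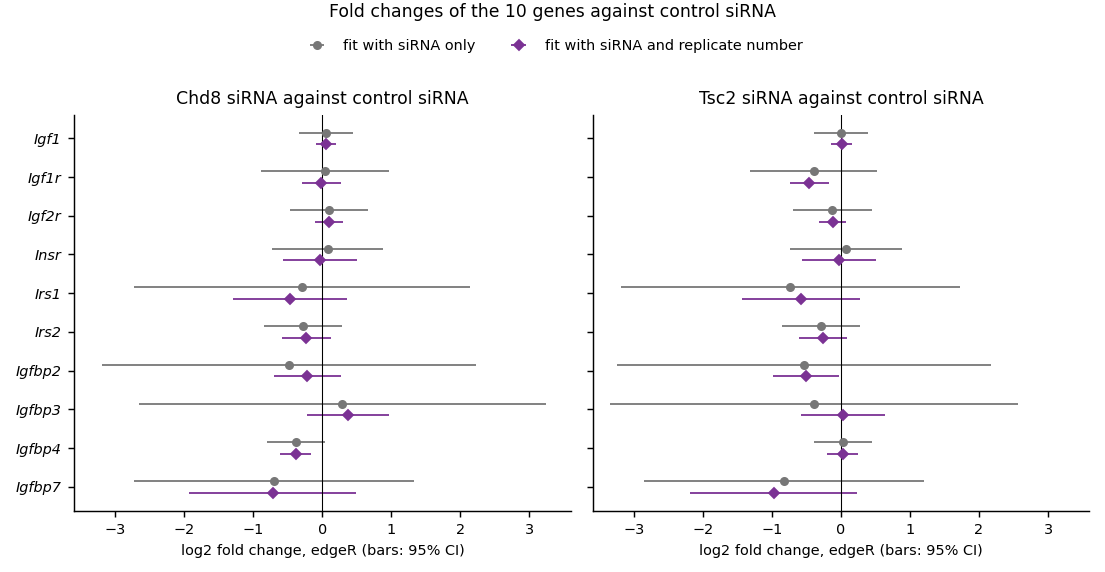
Log2 fold change of each of the 10 genes against control siRNA (horizontal axes) with its 95% confidence interval, in the fit without and with replicate number as a block, 1 panel for each siRNA. All intervals of the fit without the block span 0, and those of Igf1 with the block are the narrowest.

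Igf1r, the tyrosine kinase that IGF-1 binds (chromosome 7, 67952827 to 68233668, plus strand, GRCm38 as for all positions), was at 17.9, 25.5 and 34.9 CPM in control, 14.8, 27.7 and 38.0 CPM after Chd8 siRNA and 10.4, 21.3 and 27.7 CPM after Tsc2 siRNA. The Tsc2 siRNA library was the lowest of the 3 at each number, although the groups overlapped. Its log2 fold change against control was -0.40 (SE 0.41, adjusted p = 0.99963), and -0.46 (SE 0.13, unadjusted p = 0.0037, adjusted p = 0.173 by edgeR) with the block. Without the block this value rested on single libraries, being -0.088 without Tsc2 siRNA replicate 1, -0.128 without control replicate 3, -0.61 without control replicate 1 and -0.72 without Tsc2 siRNA replicate 3, and with the block it was -0.53 to -0.31. Between the siRNA groups Igf1r was 0.44 higher in Chd8 siRNA on the log2 scale, in 3 of 3 numbers (adjusted p = 0.185 with the block). Without the block that difference was 0.094 without Chd8 siRNA replicate 3, 0.128 without Tsc2 siRNA replicate 1, 0.73 without Chd8 siRNA replicate 1 and 0.76 without Tsc2 siRNA replicate 3, and with the block it was 0.35 to 0.51. Neither passed the adjusted test.

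Igf2r (chromosome 17, 12682406 to 12769664, minus strand) was at 87.0, 136.6 and 87.6 CPM in control, 82.3, 143 and 107 CPM after Chd8 siRNA and 83.7, 121 and 80.0 CPM after Tsc2 siRNA. As for Igf1, library 2 was the highest of each group, and the groups overlapped. The Chd8 siRNA libraries had a log2 fold change of 0.10 (SE 0.26) and the Tsc2 siRNA libraries one of -0.13 (SE 0.26), and the latter was below control in 3 of 3 numbers. Insr, the insulin receptor (chromosome 8, 3122061 to 3279617, minus strand), was at 8.94, 7.57 and 7.42 CPM in control, 6.10, 6.06 and 13.0 CPM after Chd8 siRNA and 5.63, 7.42 and 12.03 CPM after Tsc2 siRNA. Both siRNA groups had their highest value in library 3 and spread wider than control, which left log2 fold changes of 0.08 and 0.07 (SE 0.36 for both), and of -0.04 and -0.02 with the block.

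The 2 adaptors differed in level and in spread. Irs2 (chromosome 8, 10984681 to 11008458, minus strand) was at 18.9, 18.0 and 34.4 CPM in control, 18.2, 20.6 and 19.8 CPM after Chd8 siRNA and 17.9, 16.9 and 23.6 CPM after Tsc2 siRNA. Without the block its log2 fold changes of -0.28 (SE 0.25) and -0.29 (SE 0.25) rested on control library 3, the highest of the 9. In that fit without control replicate 3 they were 0.08 and 0.08. Each turned in only 1 of 18 left-out runs with or without the block. With the block and all libraries they were -0.23 (SE 0.17) and -0.26 (SE 0.16). Irs1 (chromosome 1, 82233101 to 82291416, minus strand) was at 0.415, 3.76 and 6.52 CPM in control, 0.301, 1.79 and 6.58 CPM after Chd8 siRNA and 0.640, 1.504 and 4.19 CPM after Tsc2 siRNA. In each group library 1 was the lowest and library 3 the highest for Irs1, and the log2 fold changes of -0.30 (SE 1.09) and -0.73 (SE 1.099) were smaller than their errors.

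Igfbp4, a binding protein that inhibits IGF action until a protease cuts it, was the only one of the 10 genes with a comparison, Chd8 siRNA against control, in which the CPM of the groups did not overlap. It lies on chromosome 11 at 99041244 to 99054392 on the plus strand. It was at 50.9, 59.7 and 45.5 CPM in control, 44.4, 42.7 and 32.2 CPM after Chd8 siRNA and 51.0, 64.8 and 43.9 CPM after Tsc2 siRNA. All 3 Chd8 siRNA values were below the lowest control, and at each number the Chd8 siRNA library was the lowest. The log2 fold change against control was -0.39 (SE 0.19, interval -0.81 to 0.03, unadjusted p = 0.0666, adjusted p = 0.99994 by edgeR), and the exact two-sided permutation test gave 0.1, the smallest p that 3 against 3 allows. With the block it was -0.39 (SE 0.10, interval -0.61 to -0.17, adjusted p = 0.0945), or 0.764 of control. With 1 library left out at a time, with or without the block, the value ran from -0.50 to -0.25, the smallest being without Chd8 siRNA replicate 3. Groups that did not overlap were found for 9.09% of all genes in this comparison, for 8.11% with Tsc2 siRNA against control and for 8.44% between the siRNA groups, so the 1, 0 and 0 of the 10 genes are near or below the share in the table. Against Tsc2 siRNA, Chd8 siRNA was lower by a log2 fold change of -0.42 (unadjusted p = 0.05, adjusted p = 0.116 with the block by edgeR), which ran from -0.54 without Tsc2 siRNA replicate 3 to -0.26 without Tsc2 siRNA replicate 2. After Tsc2 siRNA, Igfbp4 was at 0.03 (SE 0.19) against control on the log2 scale. Igfbp4-201, the coding transcript with 69.5% to 85.4% of Igfbp4 counts, overlapped between Chd8 siRNA and control. It was at 40.1, 51.3 and 32.0 CPM in control and 36.7, 36.9 and 27.2 CPM after Chd8 siRNA, lower at each number. The log2 fold change of this transcript was -0.29 (SE 0.24, unadjusted p = 0.26 by edgeR).

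The other 3 binding proteins varied far more between libraries of a group than between groups. Igfbp2, a secreted carrier made by astrocytes and other cells (chromosome 1, 72824503 to 72852474, plus strand), was at 2.64, 30.7 and 71.1 CPM in control, 4.09, 21.6 and 49.0 CPM after Chd8 siRNA and 1.37, 27.4 and 42.8 CPM after Tsc2 siRNA. Igfbp3, the main carrier of IGFs in blood (chromosome 11, 7206086 to 7213923, minus strand), was at 0.377, 6.77 and 24.3 CPM in control, 0.837, 8.16 and 29.5 CPM after Chd8 siRNA and 1.32, 6.52 and 16.0 CPM after Tsc2 siRNA. In each group libraries 1 were the lowest and libraries 3 the highest for both genes. Igfbp7, a binding protein of low affinity for IGFs (chromosome 5, 77349240 to 77408041, minus strand), was at 0.603, 1.60 and 3.99 CPM in control, 1.04, 0.383 and 2.34 CPM after Chd8 siRNA and 0.811, 0.251 and 2.37 CPM after Tsc2 siRNA. Against control, the log2 fold changes for Chd8 and Tsc2 siRNA were -0.48 and -0.54 for Igfbp2 (SE 1.22 and 1.21), 0.29 and -0.39 for Igfbp3 (SE 1.32 and 1.33, the latter 0.03 with the block) and -0.70 and -0.82 for Igfbp7 (SE 0.91 for both). Igfbp2 was below control in 3 of 3 numbers after Tsc2 siRNA, by a log2 fold change of -0.51 with the block (SE 0.22, interval -0.99 to -0.03, unadjusted p = 0.0387, adjusted p = 0.435 by edgeR). None of the 3 genes passed the adjusted test.

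Several of these genes differed between replicate numbers. This was seen in the values above and then tested with an F test of replicate number in an edgeR model that also held siRNA, a test chosen after seeing the data. It called 6 of the 10 genes, Igf1r, Igf2r, Irs1, Igfbp2, Igfbp3 and Igfbp7, beside 17.3% of all genes tested (2810). The largest difference between 2 numbers was 27.6-fold for Igfbp3 (adjusted p = 1.1e-07), 19.7-fold for Igfbp2 (adjusted p = 3.8e-08) and 12.6-fold for Irs1 (adjusted p = 3.6e-05). It was 4.37-fold for Igfbp7 (adjusted p = 0.0141), 2.36-fold for Igf1r (adjusted p = 1.8e-05) and 1.58-fold for Igf2r (adjusted p = 0.000108). Igf1 and Igfbp4 passed the false discovery rate at 1.37-fold (adjusted p = 0.000519 and 0.0118) and missed the 1.5-fold limit. Insr and Irs2 did not pass (adjusted p = 0.0916 and 0.0554).

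The genes did not follow one order of the numbers. Number 2 was the highest for Igf1, Igf2r and Igfbp4, and number 3 for the other 7. Igf1 was at 359 ± 19.3 CPM in the libraries numbered 1, 490.3 ± 23.2 in those numbered 2 and 400.3 ± 11.1 in those numbered 3 (SD, n = 3 each, 1 of each siRNA), and these 3 ranges did not overlap. Replicate number held 92.7% of the sum of squares of Igf1 on the log2 scale and siRNA 1.53%. For Igfbp2 the shares were 95.7% and 1.60%, and for Igfbp3 96.4% and 0.799%. Igfbp4 stood apart, with 45.4% for number and 47.3% for siRNA. The labels do not say what the numbers stand for, and culture, harvest and library preparation cannot be told apart here.

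Markers of other cells also moved with the number. The summed level of 8 astrocyte markers in TPM was 1.87 to 2.06 in the libraries numbered 1, 3.00 to 3.99 in those numbered 2 and 9.06 to 16.7 in those numbered 3, and 7 of the 8 passed the filter and were called by number. Aqp4, an astrocyte water channel, was at 0 in every library numbered 1, at 6.00 to 6.97 CPM in those numbered 2 and at 7.16 to 46.4 CPM in those numbered 3, and Gjb6 was under 3 counts in all 9. The sum of 7 fibroblast and mural markers was 0.970 to 1.37, 1.12 to 2.65 and 2.97 to 6.62, with 4 of the 5 that passed the filter called. The sum of 6 neuronal markers was 0.675 to 1.21, 0.749 to 1.06 and 1.94 to 4.39 (4 passed, 2 called). The 9 markers of the oligodendrocyte lineage summed to 5.39 to 6.69, 4.79 to 6.11 and 3.79 to 4.74 (5 passed, 4 called), and the 6 endothelial markers to 20.1 to 22.8, 13.6 to 18.4 and 21.2 to 28.7 (4 passed, 1 called), with Tek at 0 and Cldn5 under 3 counts in all libraries. The microglial sum was far larger, at 612 to 754, 545 to 621 and 562 to 736 (9 passed, 3 called). The part of these cells in the levels of Igfbp2, Igfbp3, Irs1 and the others was not tested. By siRNA group the astrocyte sums overlapped, at 1.87 to 16.7 in control, 2.06 to 9.06 after Chd8 siRNA and 1.95 to 10.1 after Tsc2 siRNA, and of the 3 libraries numbered 3 the control was the highest. The control was also the highest of these 3 for Igfbp2, Igfbp4, Igfbp7 and Irs2, whereas the Chd8 siRNA library was the highest for the other 6 genes, Igfbp3, Irs1 and Igf1r among them.

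**Figure D3:**
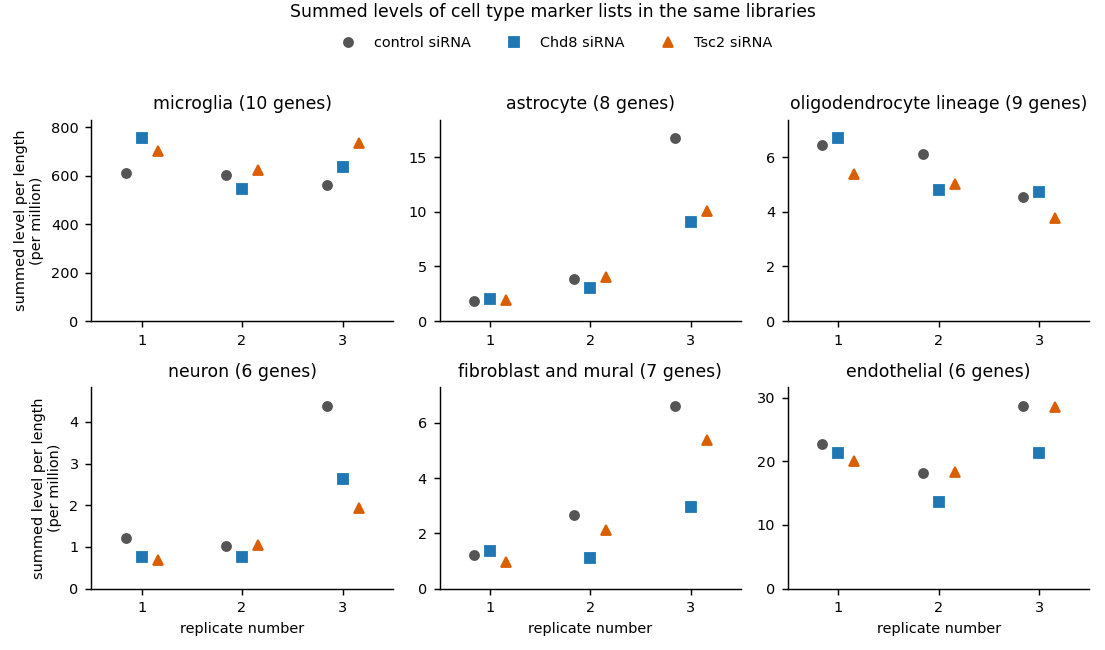
Summed level per length (TPM) of each marker list (vertical axes, linear from 0) by replicate number (horizontal axes), 1 symbol a library, with a symbol for each siRNA group. The astrocyte, neuron and fibroblast and mural sums are highest in the libraries numbered 3, and the microglial sum stays between 545 and 754.

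Igfbp2 and Igfbp3 are printed upstream of their starts because they had the largest differences between the numbers among the 10 genes and moved together. Their log2 CPM had a Pearson r of 0.939 over the 9 libraries, as Irs1 and Igfbp3 had of 0.958 and Igf1r and Igfbp2 of 0.928. The libraries fall into 3 clusters by number, so these are descriptions. Each window is the 250 bases before the gene's start in RefSeq (GRCm38.p6), 5′ to 3′ on the gene's strand, chr1:72824230-72824479 on the plus strand for Igfbp2 and chr11:7213924-7214173 on the minus strand for Igfbp3. The capitals mark GC boxes, searched as GGGCGG and, for the other strand, CCGCCC.
Igfbp2 window: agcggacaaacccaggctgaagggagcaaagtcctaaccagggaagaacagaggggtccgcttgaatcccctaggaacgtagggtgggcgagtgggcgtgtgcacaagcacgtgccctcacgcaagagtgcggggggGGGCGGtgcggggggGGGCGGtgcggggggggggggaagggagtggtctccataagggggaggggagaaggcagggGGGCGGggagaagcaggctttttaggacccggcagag
Igfbp3 window: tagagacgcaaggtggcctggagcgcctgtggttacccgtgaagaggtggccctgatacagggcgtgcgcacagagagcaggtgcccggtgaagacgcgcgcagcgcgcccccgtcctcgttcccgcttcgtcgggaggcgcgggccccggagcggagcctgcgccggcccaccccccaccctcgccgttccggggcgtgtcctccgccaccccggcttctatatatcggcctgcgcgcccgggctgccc
The Igfbp2 window held 3 GC boxes and the Igfbp3 window 0, while 32.7% of 32851 windows of this length held at least 1 and 12.4% held TATAAA. RefSeq windows were matched for 9 of the 10 genes, all but Insr. The window of another RefSeq start of Igfbp2 held 0. Igfbp7 had 4 GC boxes, Igf2r 3, Igf1r and Irs1 2 each, Irs2 1, and Igf1 and Igfbp4 0, and TATAAA was found in that of Igfbp4 alone. A match is only a match of letters.

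The Igf1 isoform classes were compared as shares, with exact tests of 3 against 3 that cannot give a p under 0.1, so a failure to pass says nothing about them. By counts, Igf1-202 (upstream first exon, Ea) took 48.4% to 56.9% of Igf1, with all Chd8 siRNA libraries above all controls, Igf1-206 (downstream, alternative exon present) 18.9% to 24.5% and Igf1-205 (downstream, Ea) 13.6% to 18.3%. Igf1-202 is a model of 7052 bases and Igf1-206 of 651 bases, so the order turns per length, where Igf1-206 held 46.6% to 53.7% and Igf1-202 9.79% to 13.4%. Both scales depend on where the reads of long shared exons were assigned. Igf1-204 was at 0 in every library.

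Transcripts with the upstream first exon held 18.8% ± 0.674 of Igf1 per length in control, 19.1% ± 3.28 after Chd8 siRNA and 18.0% ± 1.45 after Tsc2 siRNA (SD, n = 3). The groups overlapped, with exact permutation p of 0.8 for Chd8 siRNA and 0.6 for Tsc2 siRNA against control and 0.8 between them. Transcripts with the alternative exon held 57.6% ± 1.56, 57.0% ± 1.31 and 58.2% ± 1.93 per length, with exact permutation p of 0.6, 0.7 and 0.4. Igf1-201, which extends the exon, was 0.67% to 1.21% of Igf1 per length. All 6 tests had an adjusted p of 0.8. On the scale of counts, the alternative exon class was at 30.0%, 31.6% and 32.7% in control, 29.9%, 28.7% and 28.6% after Chd8 siRNA and 32.0%, 30.8% and 32.7% after Tsc2 siRNA. On that scale Chd8 siRNA lay below both other groups without overlap (exact permutation test adjusted over 6 tests, p = 0.3 for both), whereas per length the groups overlapped. How often isoform shares of other genes separate in this way was not computed. Igf1-202 skips this exon, so its higher share of counts after Chd8 siRNA is not a separate result. Per length the class was still lower in Chd8 siRNA than in control and in Tsc2 siRNA at each of the 3 numbers, by differences of the means of -0.604 and -1.19 points.

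**Figure D4:**
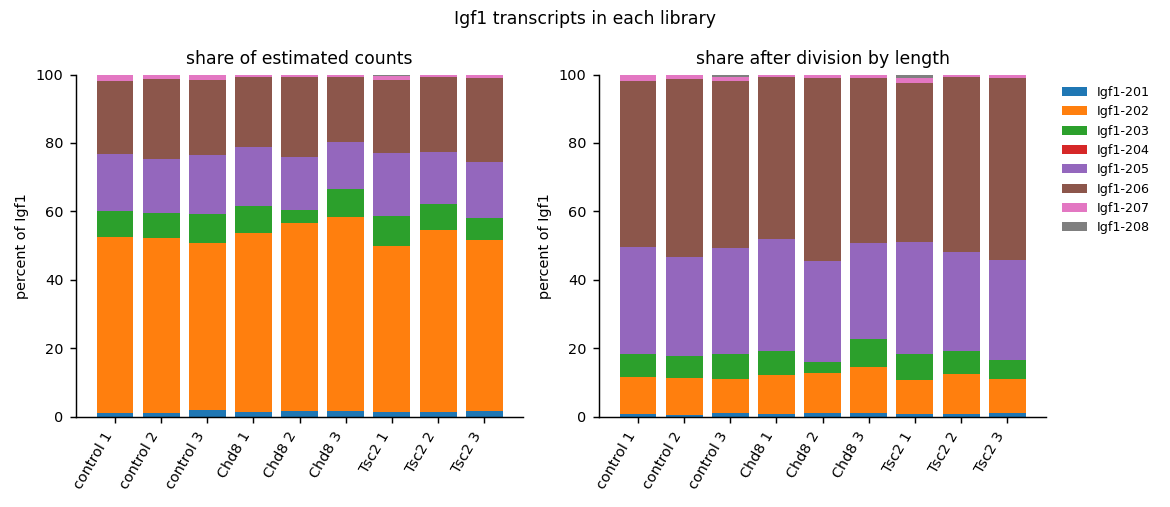
Stacked bars of the percent of Igf1 (vertical axes, 0 to 100) held by each of its transcripts in the 9 libraries (horizontal axes), in 1 panel by estimated counts and in the other per length. Igf1-202 holds 48.4% to 56.9% by counts and 9.79% to 13.4% per length. By counts, the Chd8 siRNA libraries hold 52.2%, 54.9% and 56.9% of Igf1 in Igf1-202, above the 51.3%, 51.2% and 48.9% of control and overlapping Tsc2 siRNA.

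Of the 37 transcripts of the 10 genes 20 passed the filter, and 0 were called in any comparison, beside 0% of the 41633 transcripts tested in each. The unadjusted p was under 0.05 for 1384, 1177 and 1357 of all transcripts and for 2, 1 and 0 of the 20, and DESeq2 called 187, 172 and 186 transcripts. Groups that did not overlap were found for 8.77% of transcripts for Chd8 siRNA against control, 8.39% for Tsc2 siRNA against control and 8.48% between the siRNA groups, and for 3, 2 and 1 of the 20. Igf1-207, an Ea transcript with the upstream first exon, had 6.22, 6.52 and 5.08 CPM in control, 2.06, 4.20 and 3.59 CPM after Chd8 siRNA and 4.84, 3.64 and 3.49 CPM after Tsc2 siRNA. Both siRNA groups were below all controls, with log2 fold changes of -0.86 (unadjusted p = 0.0406) and -0.57, and neither passed the adjusted test (edgeR, adjusted p = 1 for Chd8 siRNA). Igf1-207 was 0.579% to 1.88% of Igf1 counts, so it weighed little in the gene's sum. Igfbp4-203, a transcript with no coding sequence, was at 8.39, 8.69 and 13.5 CPM in control and 7.003, 5.49 and 5.43 CPM after Chd8 siRNA (log2 fold change -0.77, unadjusted p = 0.0236, adjusted p = 1 by edgeR). Insr-204, a retained intron, was at 0.441, 0.621 and 0.217 CPM in control and 1.06, 1.23 and 0.751 CPM after Chd8 siRNA, again without overlap. Igf1r-203, also a retained intron, had 0 counts in all 3 controls, 18, 0 and 0 after Chd8 siRNA and 3, 38 and 40 after Tsc2 siRNA. The 2 splice forms of the insulin receptor were not compared, since the annotation holds 1 full-length coding transcript, Insr-201. Igf1, Igf2r, Insr, Irs1, Irs2 and Igfbp7 overlap genes on the other strand, whose reads can be told apart only if strand was used in counting.

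The genes whose pattern over the 9 libraries was most like that of Igf1, among 6148 genes with a mean of at least 10 CPM, were Atp11b (Pearson r 0.977), Gbp4 (0.975), Atp5a1 (0.974), Hdc (0.969) and Tor3a (0.967). Each was highest in the libraries numbered 2, as was Igf1. Hdc, for one, was at 58.2 ± 1.99 CPM in those libraries, 29.1 ± 2.38 in those numbered 1 and 35.8 ± 1.18 in those numbered 3 (SD, n = 3). Among the 10 genes Igf2r was the most like Igf1, with r 0.922.

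The rest of the insulin and IGF pathway was read from 76 further genes, of which 65 passed the filter. None was called in any comparison, with or without the block. The median log2 fold change was -0.04 for Chd8 siRNA (28 genes above 0 and 37 below) and -0.03 for Tsc2 siRNA (30 and 35) against control and -0.04 between the siRNA groups (24 and 41), beside -0.02, -0.02 and 0.00 for all genes. The unadjusted p was under 0.05 for 0, 3 and 3 of them, beside 622, 425 and 504 of the 16273 genes, and with the block for 8, 10 and 12, beside 2091, 1737 and 1745. Tsc2, the siRNA's own target, is on the list and is 1 of the genes counted in both comparisons with Tsc2 siRNA (unadjusted p = 0.0304 and 0.0418 by edgeR without the block), which the design fixes. Groups did not overlap for 2, 8 and 4 of the 65 genes, Tsc2 again among them in both comparisons with Tsc2 siRNA, beside the 9.09%, 8.11% and 8.44% of all genes. Of the other ligands, Ins1 was at 0 in all libraries and Ins2 did not pass the filter, while Igf2 was at 0.12 to 6.53 CPM. Its log2 fold change against control was -0.85 where Chd8 and -0.65 where Tsc2 was targeted, and -0.19 between the siRNA groups, the last being 0.11 when only coding transcripts were summed. Igfbp1, Igfbp6, Irs3 and Irs4 did not pass the filter either.

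Stat5a, listed with Stat5b in the growth hormone arm, had the lowest p of these genes in the Tsc2 comparison. It was at 28.7, 37.6 and 30.0 CPM in control, 37.1, 46.4 and 36.0 CPM after Chd8 siRNA and 39.5, 57.0 and 47.5 CPM after Tsc2 siRNA. All Tsc2 siRNA values were above all controls. The log2 fold change was 0.58 (unadjusted p = 0.00922, adjusted p = 0.99963 by edgeR), and with the block 0.58 (SE 0.10, adjusted p = 0.0171 by edgeR), or 1.49-fold, just under the 1.5-fold limit. Trib3, an inhibitor of Akt, was at 0.38, 0.43 and 0.47 CPM in control and 1.88, 1.35 and 1.05 CPM after Tsc2 siRNA, again without overlap (log2 fold change 1.73, unadjusted p = 0.0172 by edgeR, adjusted p = 0.35 with the block). After Chd8 siRNA Trib3 was at 0.70, 1.28 and 0.29 CPM. Its control values rest on few counts, since 3 counts are worth 0.0903 to 0.177 CPM. Inpp5d, the lipid phosphatase SHIP1, was at 57.9, 57.9 and 45.5 CPM after Chd8 siRNA and 43.7, 27.9 and 32.8 CPM after Tsc2 siRNA (log2 fold change 0.62, unadjusted p = 0.0286 by edgeR, adjusted p = 0.0703 with the block).

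The remaining genes with the lowest p in their list did not pass either. For Chd8 siRNA against control these were the adaptor Grb14 (log2 fold change -1.14), the protease inhibitor Stc1 (-0.47), the convertase Pcsk6 (-1.08), the PI3-kinase subunit Pik3r3 (-0.93), the mTORC1 subunit Rptor (-0.16, but 0.20 with coding transcripts only), the insulin receptor-related receptor Insrr (0.02) and Stat5a (0.31). For Tsc2 siRNA against control they were the adaptor Grb10 (-0.94), the protease Pappa, which cuts Igfbp4, the convertase Furin (-0.18), Insrr (0.64) and Tsc2 itself. Between the siRNA groups they were Grb10 (0.87), Pappa, the insulin-degrading enzyme Ide (-0.09), the growth hormone receptor Ghr (2.02), Rptor (-0.31, unadjusted p = 0.0230 by edgeR) and Insrr (-0.62). Pappa was at 0.0427 and 0.0501 CPM in Tsc2 siRNA libraries 1 and 2, under the level of 3 counts there (0.132 and 0.143 CPM), so its fold changes are not given. Ghr in Tsc2 siRNA library 1 (0.0854 CPM) and Grb14 and Insrr in Chd8 siRNA library 1 (0.0670 and 0 CPM) were also under 3 counts. The fold changes printed for Ghr, Grb14 and Insrr therefore rest on few counts. Several of the values printed here rest on single libraries. With 1 library left out at a time, with or without the block, the values for Chd8 siRNA against control ran from -2.34 to -0.63 for Grb14, -0.94 to -0.14 for Stc1, -1.46 to -0.68 for Pcsk6, -1.22 to -0.53 for Pik3r3, -0.24 to -0.089 for Rptor and 0.19 to 0.44 for Stat5a. Those for Tsc2 siRNA ran from -1.60 to -0.51 for Grb10 and -0.27 to -0.071 for Furin, and those between the siRNA groups from 0.45 to 1.51 for Grb10, 0.70 to 2.66 for Ghr and -1.44 to -0.011 for Insrr. Igfbp5, the only other binding protein tested, was at -0.81, -0.57 and -0.24 in the 3 comparisons.

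By replicate number 17 of the 65 were called (26.2%), beside the 17.3% of all genes. Igfbp5 differed by 32.6-fold between numbers, at 1.47, 9.67 and 60.3 CPM in control, 0.74, 8.48 and 31.6 CPM after Chd8 siRNA and 1.79, 7.57 and 38.6 CPM after Tsc2 siRNA. It had the order of Igfbp2 and Igfbp3, while Igf2 (12.6-fold) was highest in the libraries numbered 2. The adaptors Sos1 and Gab1 had another order, being highest in the libraries numbered 1. Sos1, the exchange factor that links receptors to Ras, was at 279 to 318 CPM there and at 70.5 to 103 CPM in the other 6, and Gab1 was at 39.7 to 48.8 CPM there and at 5.21 to 11.97 CPM in the others. The other 13 called were Insrr, Sos2, Sh2b2, Ptpn1, Htra1, Pik3ca, Pik3cd, Inppl1, Pdpk1, Foxo3, Ghr, Cebpb and Jun, and 0 of the 12 genes of the mTORC1 arm was called.

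**Figure D5:**
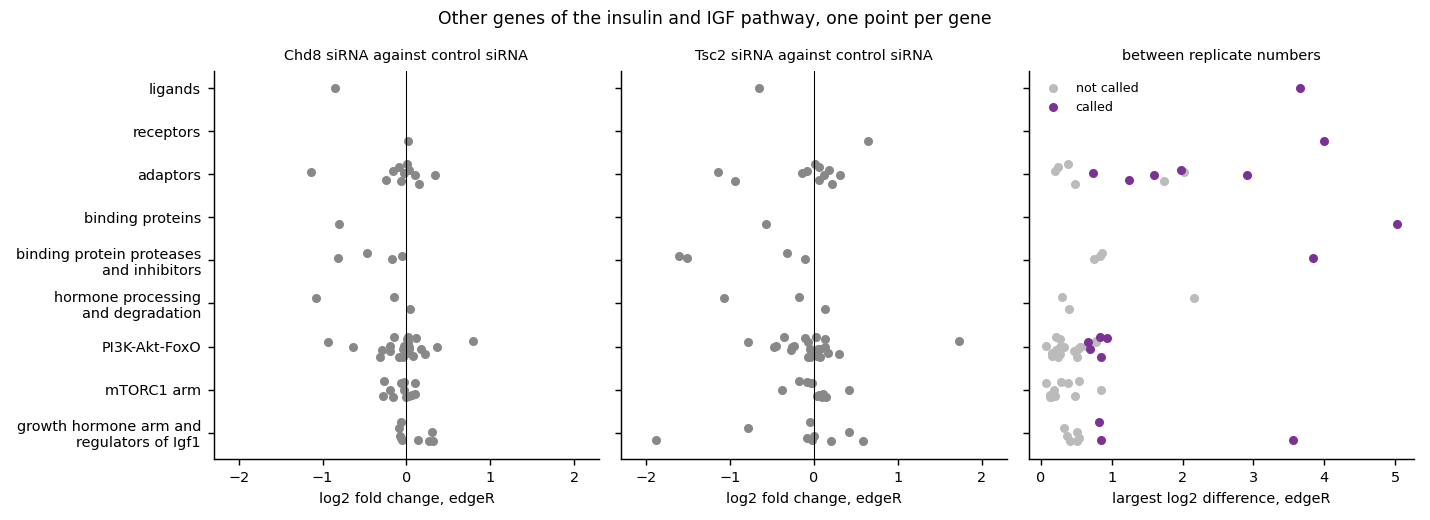
Log2 fold change against control siRNA (horizontal axes, 1 panel for each siRNA) of the 65 tested genes by pathway list (vertical axis), 1 point a gene, and in the last panel the largest log2 difference between replicate numbers, with the 17 called genes coloured. Points lie on both sides of 0 in the larger lists, and none passed the test against control.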

How the data were processed

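RNA was sequenced from 9 libraries of primary mouse microglia, 3 per siRNA group. The authors deposited estimated counts per Ensembl transcript, made with salmon 0.14.1 per the submitters' processing notes (mm10). The annotation release is not given in the sources used here, nor is whether counting used strand, and the methods and the labels name different library kits. Between 26.8% and 32.1% of the values are not whole.

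Transcripts were assigned to genes with GENCODE mouse release 21 (GRCm38, the build of mm10), which matched 139852 of 140948 transcripts, and the 1096 unmatched held 0.27% of counts. Counts were summed per gene and rounded. The test was edgeR 4.0.16 (quasi-likelihood, filterByExpr with a minimum count of 10, TMM, 1 fit of the 3 groups) in R 4.3.3, with Benjamini-Hochberg adjustment over all 16273 genes or 41633 transcripts, and a gene was called at a false discovery rate under 0.05 and over 1.5-fold. Adjusted p-values without other mention are from this fit. The scripts were tested on simulated data with planted changes well above the 1.5-fold limit, so finding smaller changes was not tested. The biological coefficient of variation was 0.408 for genes and 0.828 for transcripts. DESeq2 1.42.0, limma 3.58.1 (voom), other scaling, no filter, coding transcripts only, left-out libraries and a replicate block were alternatives. CPM use TMM sizes, and levels per length divide each transcript's counts by its length. Isoform shares were compared with two-sided exact permutation tests. The spread between libraries and the depth (a floor of 3 counts) limit precision, and the floor covers counting error only.

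Libraries were paired by replicate number, as deviations from the group means correlated in all 9 pairs of equal number (r 0.337 to 0.628 over genes). The mean over other pairs was -0.231. Deviations within a group sum to 0, so this value largely follows from the first and is no separate evidence. The labels give the numbers. The study's methods name no pairing, so the fit without the block stands first.

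The 10 genes, the pathway lists and the markers were chosen with earlier results of these data known. Named are the 10 genes, the 5 most like Igf1, genes called in any comparison, and in each pathway list the gene with the lowest p per comparison. The genes called by replicate number, Igf1-207, Igfbp4-203, Insr-204, Igf1r-203 and the marker genes were named after their values were seen.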

Additional observations from a re-analysis of the deposited data

How the results depend on the processing

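The numbers of the 10 genes, of their transcripts and of the genes separated by replicate number that passed the test stayed within 1.5 times of the reported value under every alternative run, 0 of the 10 genes being called throughout, which says little where a setting called few or no genes at all, including TMM replaced by edgeR's RLE size factors, no filter, DESeq2, limma-voom, left-out libraries and the replicate block. By replicate number 5 to 8 of the 10 were called. Pairing the libraries with the block raised the calls over all genes from 0 to 87, 63 and 36 and called Chd8 in Chd8 siRNA both against control and against Tsc2 siRNA. It changed no other call reported here. Of 171 fold changes under other settings, those of the 10 genes against control and of Igf1, Igf1r, Igf2r and Igfbp4 between the siRNA groups, 157 kept their direction and 14 turned, none of them past the test, and the cause was not tested.

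With the replicate block the log2 fold change for Chd8 siRNA against control was -0.013 for Igf1r, -0.036 for Insr and -0.39 for Insrr, and for Tsc2 siRNA against control 0.0093 for Igf1, -0.024 for Insr and 0.026 for Igfbp3. Igf1 after Tsc2 siRNA was 0.0037 with edgeR's RLE size factors, 0.0038 with DESeq2, 0.020 with no filter, 0.012 with limma-voom and 0.045 in the libraries numbered 1 and 2 only. With limma-voom, Igf1r was -0.034, Insr -0.0146 and Insrr -0.93 for Chd8 siRNA, and Igfbp3 0.69 and Igfbp5 0.033 for Tsc2 siRNA. With coding transcripts only, Igf1r was -0.00378, Rptor 0.20 and Insrr -0.35 for Chd8 siRNA, and Igf2 0.11 between the siRNA groups.

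With 1 library left out at a time, log2 fold changes for Chd8 siRNA ran from -0.10 to 0.20 for Igf1, -0.29 to 0.33 for Igf1r, -0.13 to 0.35 for Igf2r, -0.41 to 0.30 for Insr, -1.82 to 0.50 for Irs1, -0.44 to 0.081 for Irs2, -1.45 to 0.59 for Igfbp2, -1.25 to 1.88 for Igfbp3, -1.49 to 0.22 for Igfbp7, -2.42 to 1.31 for Igfbp5, -2.64 to 0.95 for Igf2 and -1.38 to 1.32 for Insrr. For Tsc2 siRNA they ran from -0.12 to 0.15 for Igf1, -0.34 to 0.12 for Igf2r, -0.39 to 0.30 for Insr, -1.73 to 0.062 for Irs1, -0.45 to 0.080 for Irs2, -1.28 to 0.53 for Igfbp2, -1.42 to 1.20 for Igfbp3, -0.13 to 0.16 for Igfbp4, -1.93 to 0.10 for Igfbp7, -2.35 to 1.55 for Igfbp5, -2.20 to 1.1399 for Igf2 and -0.65 to 1.93 for Insrr. Between the siRNA groups they ran from -0.10 to 0.16 for Igf1, -0.0044 to 0.43 for Igf2r, -1.85 to 1.54 for Igfbp5, -0.43 to 0.10 for Ide and -1.98 to 1.36 for Igf2. The upstream first exon class ran from -1.35 to 1.92 points for Chd8 siRNA, -1.26 to 0.0713 for Tsc2 siRNA and -0.587 to 2.68 between them, and the alternative exon class from -1.45 to 0.116 for Chd8 siRNA, -0.255 to 1.64 for Tsc2 siRNA and -2.25 to -0.360 between them. Of the 65 pathway genes, 0 to 1 was called for Tsc2 siRNA (Stat5a, with the block and without control replicate 1, Chd8 siRNA replicate 3 or Tsc2 siRNA replicate 1) and 0 to 1 between the siRNA groups (Inpp5d, with the block and without Chd8 siRNA replicate 1).

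With 3 libraries a group, exact tests cannot go below 0.1, and some values rest on few counts, among them those of Pappa, Ghr, Grb14, Insrr, Pcsk6 and Trib3 in some libraries, of Irs1 and Igfbp3 in libraries numbered 1 (9 to 15 and 10 to 31 counts) and of Igfbp7 in libraries numbered 1 and 2 (5 to 31 counts).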
